A study of Rattus norvegicus with 12 samples.

Results

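Respiratory complex I, the NADH dehydrogenase of mitochondria, was followed through 44 of the 34525 genes measured by RNA sequencing in rat thalamus and rostral ventral medulla (RVM). Members were protein coding genes chosen by name alone. They comprised 37 nuclear genes of the Ndufa, Ndufb, Ndufc, Ndufs and Ndufv series and the 7 ND genes of the mitochondrial chromosome (ND1 to ND6 and ND4L). No name occurred more than once. Assembly factors and Ndufab1 fall outside that naming rule and are described with the neighbouring pathway genes, and Ndufs6 and Ndufb1 were not analysed here. The samples come from a series on chronic orofacial pain. There were 12 libraries in 4 groups of 3: thalamus saline and RVM saline, given 0.9% saline per the labels, and thalamus CFA and RVM CFA. CFA usually stands for complete Freund's adjuvant, used to inflame tissue at the place of injection, but the labels give these letters only. All groups are rats, and strain, age, dose, place of injection and time are not stated. Nor is it stated whether a library is 1 animal or a pool, so the p-values here reflect only the spread among these libraries, which may be technical. Whether both regions were taken from the same rats is not stated either.

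Complex I takes electrons from NADH at the tip of its matrix arm, passes them along iron-sulfur clusters to ubiquinone, and uses the energy released to pump protons through its membrane arm. The ND proteins, made inside the mitochondrion, form the core of the membrane arm. Nuclear genes encode the catalytic subunits of the matrix arm and a shell of accessory subunits, and the proteins are imported and joined in modules. In the brain the enzyme feeds the ATP supply of synapses and ion pumps, and inherited defects of its subunits are a known cause of Leigh syndrome, which damages the brainstem and deep grey matter, thalamus included. Nuclear members were grouped by where their protein sits: 9 in the N module, which oxidises NADH; 6 in the Q module, which reduces ubiquinone; and, along the membrane arm, 3 beside ND1, 6 beside ND2, 5 beside ND4 and 5 beside ND5. The other 3 (Ndufa4, Ndufa4l2 and Ndufa10l1) were placed in no module. They stay among the nuclear members in sums and, where tested, in counts and medians.

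Levels are FPKM, the authors' fragment counts divided by gene length and by a library total. That total differed from the reads on genes by a factor of 0.934 to 1.17, a scaling whose method is not given. Division by length allows a rough comparison between genes. The libraries held 14944794 to 19243108 reads on genes, and a gene with 0 reads could still have an expected 3 reads, equal to 0.156 to 0.201 CPM. These limits cover counting error only. Summed markers matched the labelled regions: 7 hindbrain and RVM genes reached 109 to 140 FPKM in the RVM and at most 1.17 in the thalamus, and 6 thalamic neuron genes reached 111 to 750 FPKM in the thalamus and 63.5 to 79.9 in the RVM. The extraction text speaks of retinas, yet 5 retina genes summed to at most 1.74 FPKM. Thalamus CFA libraries 1 and 2 stood apart, with 10236 and 2455 FPKM summed over 7 choroid plexus genes. The same sum was 14.6 FPKM in thalamus CFA 3, and thalamus saline had 5.15 to 27.8. Cldn5, a defining endothelial gene, was listed at 0 in every library.

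The ND transcripts were among the most abundant in the tissue. By mean FPKM over the 12 libraries, ND2 ranked 6 and ND1 ranked 8 of all genes, with means of 7240 and 6281 FPKM. ND3 and ND4L followed with 3446 and 3157, then ND5 and ND6 with 1739 and 1546, and ND4 came last with 671 FPKM and rank 57. All lie on the mitochondrial chromosome: ND1 at 2740 to 3694, ND2 at 3904 to 4942, ND3 at 9451 to 9798, ND4L at 9870 to 10166, ND4 at 10160 to 11537, ND5 at 11736 to 13565 and ND6 at 13543 to 14061, the last on the opposite strand (genome build not given in the sources used here). In each group the library values of ND3 and ND4L overlapped, as did those of ND5 and ND6. Within libraries ND5 was 1 to 1.22 times ND6 and never below it, whereas ND3 was above ND4L in some libraries and below it in others. ND4 was below ND6 in all 12 libraries.

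ND4L and ND4 share a messenger RNA and overlap at their ends, yet their levels differed within every library. The ratio of ND4L to ND4 was 4.52 ± 0.78 with saline and 4.80 ± 0.85 with CFA in the thalamus, and 6.16 ± 1.35 with saline and 4.15 ± 0.30 with CFA in the RVM (mean ± SD, n = 3 libraries each). ND5 and ND6 also overlap, on opposite strands, and without stranded counting, which is not stated, the reads of the shared stretch and any RNA antisense to ND6 cannot be told apart from the genes themselves.

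**Figure D1:**
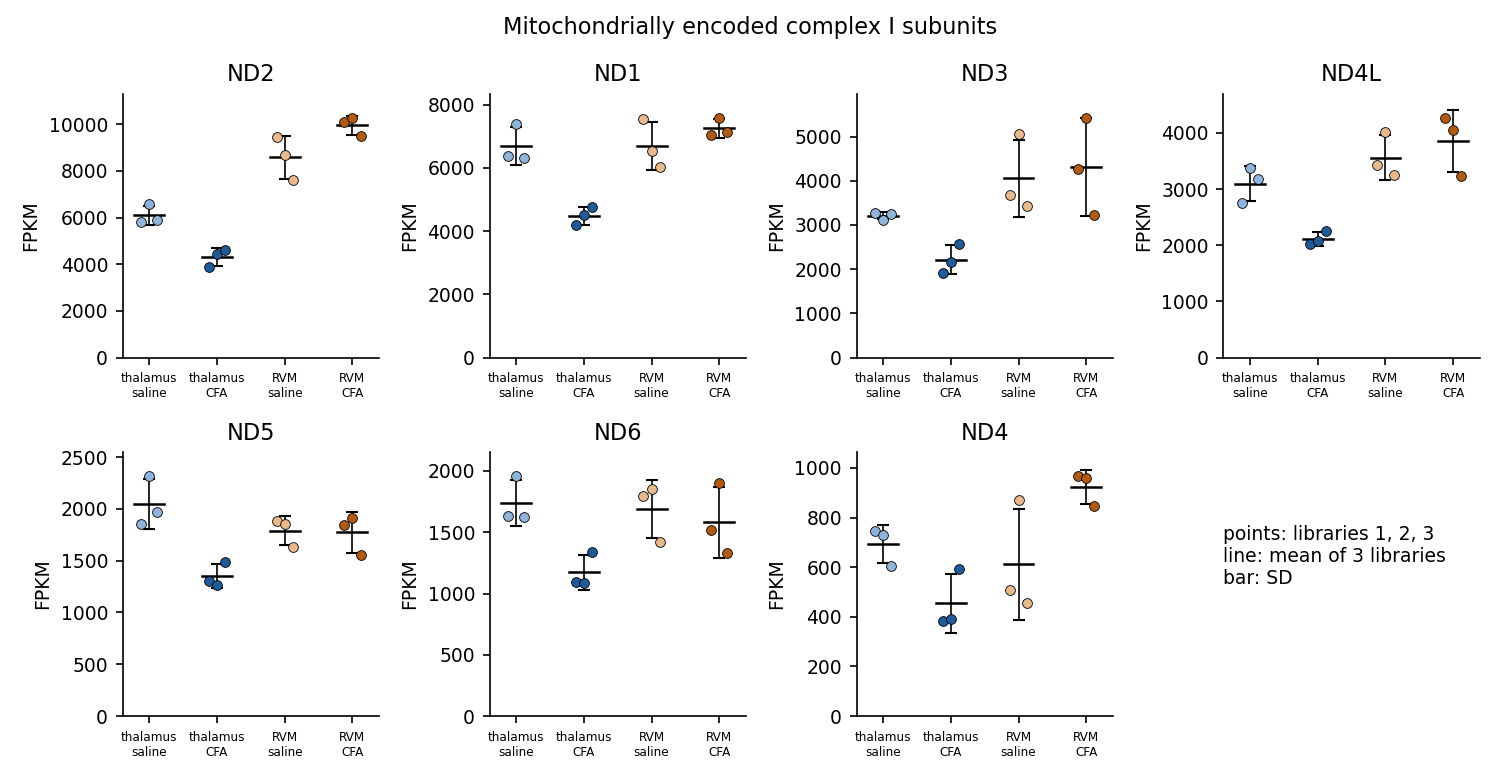
FPKM of the 7 mitochondrial ND genes by group; points are libraries, lines the mean of 3 libraries and bars the SD, and each axis starts at 0. In these deposited FPKM the 3 thalamus CFA libraries lie below the 3 saline libraries for each of the 7 genes. As a share of recovered reads ND4 overlaps there. In the RVM the groups overlap in FPKM for all but ND2.

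Among nuclear members, 36 of 37 had a mean of at least 1 FPKM in the thalamus and in the RVM and entered the tests. Ndufa4 (chromosome 4, 38233680 to 38240848), long listed as a complex I subunit and now assigned to cytochrome c oxidase, was the highest with a mean of 333 FPKM. Sorted by level, it read 257, 273 and 310 FPKM (saline) and 245, 268 and 271 (CFA) in the thalamus, against 370, 373 and 418 (saline) and 366, 400 and 448 (CFA) in the RVM. All 6 RVM libraries were above all 6 thalamus libraries. Ndufb8, Ndufb4 and Ndufb9 of the membrane arm came next with means of 286, 279 and 248 FPKM. At the other end, Ndufv3, an accessory subunit of the N module, averaged 41.9 FPKM, Ndufa12, an accessory subunit that joins the matrix arm late, 10.9 FPKM, and Ndufa4l2, a hypoxia-inducible relative of Ndufa4, 3.40 FPKM. Ndufa4l2 ranged from 2.51 to 4.33 FPKM over all libraries, on 38 to 68 reads each. Ndufa10l1 had 1 read in 1 library and 0 in the other 11, and was not tested.

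Replicates agreed closely for most members. Leaving out Ndufa1 and Ndufa10l1, the coefficient of variation of the 35 nuclear genes had a median of 7.71% (saline) and 9.25% (CFA) in the thalamus, and 6.49% (saline) and 7.28% (CFA) in the RVM. For the 7 ND genes the medians were, in that order, 10.1%, 8.90%, 11.4% and 10.9%. ND4 was the most variable ND gene in thalamus CFA (26.1%) and RVM saline (36.8%), and ND3 in RVM CFA (25.6%). Shares of the nuclear sum differed between regions for some members. Ndufa13, which sits beside ND1 and is known as GRIM-19 for its part in cell death, made up 5.50% of summed nuclear FPKM in thalamus saline and 4.31% in RVM saline, and Ndufa3, its neighbour in the ND1 part, 4.16% and 5.24%.

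Ndufa1 (chromosome X, 124513269 to 124516705, ENSRNOG00000040005), a small membrane arm subunit needed early in assembly, did not follow the other members. Libraries 1, 2 and 3 held 3, 5 and 675 reads in thalamus saline. With CFA they held 2, 3 and 0. In the RVM the counts were 5, 678 and 55 with saline, and 8, 0 and 291 with CFA. As FPKM these were 0.708, 1.46 and 192, then 0.494, 0.829 and 0, then 1.45, 228 and 15.6, and 2.08, 0 and 82.0. The high values occurred in single libraries of 3 of the 4 groups and followed neither region nor treatment. A spread above 50-fold within a group of 3 (on FPKM + 0.1, in genes reaching at least 10 FPKM) was rare: of 14671 genes, 18 showed it in thalamus saline (0.123%), 28 with CFA there, and 8 and 12 in the RVM groups. No other member did. Ndufa1 is kept in every count and median of fold differences below and left out of sums over nuclear genes. What sets its counts was not tested.

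**Figure D2:**
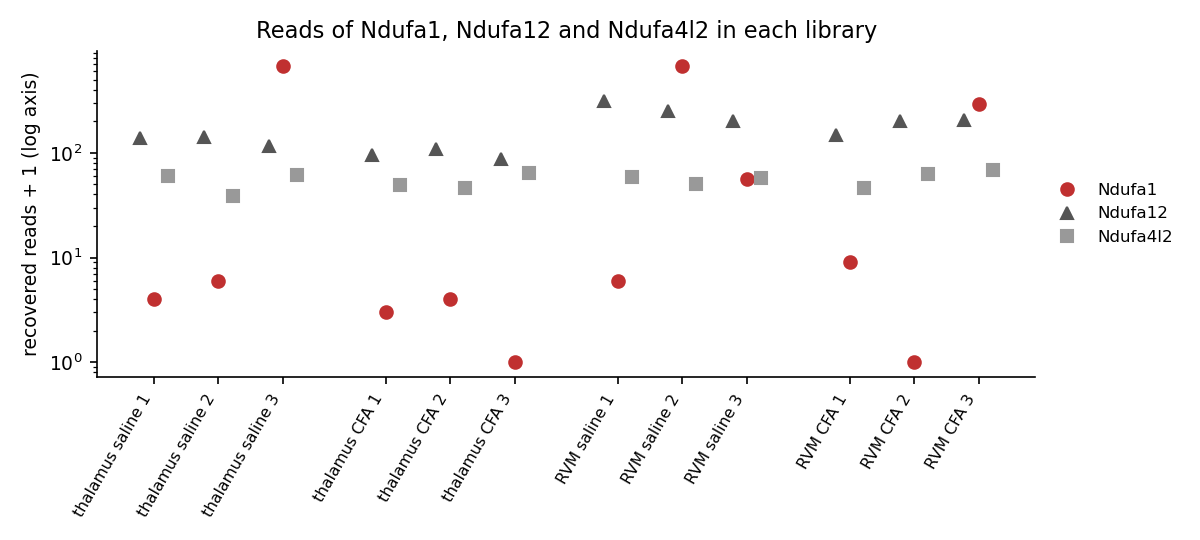
Reads recovered from FPKM, plus 1, on a log axis, for Ndufa1, Ndufa12 and Ndufa4l2 in each of the 12 libraries. Ndufa1 runs from 0 reads to 675 and 678 within groups, while Ndufa12 and Ndufa4l2 stay between 38 and 311 reads.

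Nuclear members are scattered over the genome yet differed between regions in the same direction, as the comparisons of thalamus with RVM give, so their promoters were set side by side. Of the 37 nuclear members 33 had a RefSeq promoter of 300 bases (250 before and 50 after the gene start, build GRCr8). Searched on both strands were GCGCATG, a core of the NRF1 motif, CCGGAAG of GABP and other ETS factors, AAGATGG of YY1 and AAGGTCA of the estrogen-related receptor ERRalpha. These factors are textbook activators of nuclear respiratory genes. The NRF1 core overlaps its own reverse complement, CATGCGC, so a single palindromic run can match more than once. Of the 33 member promoters 18 (54.5%) held at least 1 of the 4 cores, beside 21.8% of all 33469 promoters in the same table. Those promoters were not sorted by gene type and outnumber the 22250 protein coding genes measured here, so the members are not set against like genes. The NRF1 core stood in 4 (12.1% against 3.8% of all), the ETS core in 7 (21.2% against 8.7%), the YY1 core in 8 (24.2% against 7.0%) and the ERRalpha core in 3 (9.1% against 4.6%). The member promoters were also richer in G and C, with a median of 57.0% against 51.7%. All 8 YY1 matches read along the gene and began at positions -1 to 27 around the gene start. AAGATGG holds the letters ATG, and whether these matches cover start codons was not tested. A match is a description of letters and not of binding.

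These 4 promoters, chosen after the values were seen, show the range: Ndufa6, with 3 of the 4 motifs; Ndufa11, with a palindromic NRF1 run; Ndufb8, the highest matched nuclear subunit of the membrane arm, with NRF1 and YY1 cores; and Ndufa13, with 2 ETS cores and the smallest regional difference in saline. Capitals mark the cores, and sequences read 5′ to 3′ along the gene. They are Ndufa6 at chr7:115750268-115750567 (minus strand), Ndufa11 at chr9:1637364-1637663 (plus), Ndufb8 at chr1:253362887-253363186 (minus) and Ndufa13 at chr16:19560276-19560575 (plus).
Ndufa6: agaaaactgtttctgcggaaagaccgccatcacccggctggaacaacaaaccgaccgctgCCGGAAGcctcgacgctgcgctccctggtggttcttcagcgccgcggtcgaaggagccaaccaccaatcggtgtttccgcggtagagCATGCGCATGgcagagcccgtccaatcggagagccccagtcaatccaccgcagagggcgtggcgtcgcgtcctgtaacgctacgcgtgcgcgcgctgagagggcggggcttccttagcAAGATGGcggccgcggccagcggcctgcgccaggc
Ndufa11: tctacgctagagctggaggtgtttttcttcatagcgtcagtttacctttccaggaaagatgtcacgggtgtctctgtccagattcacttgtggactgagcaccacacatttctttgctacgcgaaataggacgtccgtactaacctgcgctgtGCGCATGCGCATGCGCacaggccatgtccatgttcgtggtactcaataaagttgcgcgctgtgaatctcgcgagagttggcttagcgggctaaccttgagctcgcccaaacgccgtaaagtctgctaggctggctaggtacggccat
Ndufb8: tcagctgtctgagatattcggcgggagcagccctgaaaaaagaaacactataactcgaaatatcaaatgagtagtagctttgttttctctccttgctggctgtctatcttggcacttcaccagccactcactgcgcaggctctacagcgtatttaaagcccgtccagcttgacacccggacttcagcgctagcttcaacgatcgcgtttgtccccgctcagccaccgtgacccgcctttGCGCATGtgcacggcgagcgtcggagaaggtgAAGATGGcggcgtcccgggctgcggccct
Ndufa13: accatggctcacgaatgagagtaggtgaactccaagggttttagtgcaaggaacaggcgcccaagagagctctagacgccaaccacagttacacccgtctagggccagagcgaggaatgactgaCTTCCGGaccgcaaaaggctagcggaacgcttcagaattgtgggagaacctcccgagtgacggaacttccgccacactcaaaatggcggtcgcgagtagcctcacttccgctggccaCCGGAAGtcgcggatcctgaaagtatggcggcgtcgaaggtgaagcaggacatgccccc

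The first comparison was CFA against saline in the thalamus. In deposited FPKM each of the 7 ND genes was lower in all 3 CFA libraries than in all 3 saline libraries. Their CFA means were 65.6% to 70.8% of the saline means. Yet 0 of the 43 members tested passed an adjusted p of 0.05 (limma on log2(FPKM + 1), Benjamini-Hochberg over all genes). As a share of recovered reads the ND4 groups overlapped. Thalamus CFA 3 had 13537 of 14978698 reads on ND4, a larger share than the 13811 of 16733178 in thalamus saline 3. The ND median log2 difference was -0.57, and -0.40 at the same FPKM total. Over all genes 605 of 14722 passed, 4.11%, with 3.84% higher and 0.272% lower. The number lower depended on the fit: 40 here, against 210 with library quality weights and 832 in 1 model over all 12 libraries. Limma-voom on the recovered reads called 0 members too. The 7 ND genes all had an unadjusted p below 0.05, as did 6 of 36 nuclear members. Among all genes 21.4% had an unadjusted p below 0.05, and 16.8% had CFA libraries wholly below saline libraries.

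ND1, which lies at the joint of the matrix and membrane arms, read 6373, 7375 and 6312 FPKM in the saline libraries and 4184, 4511 and 4756 in the CFA libraries. Its log2 difference was -0.57 ± 0.13 (SE; adjusted p = 0.0752, limma). ND2, one of the proton-pumping subunits, read 5804, 6567 and 5912 FPKM against 3884, 4455 and 4614, a log2 difference of -0.50 ± 0.13 (adjusted p = 0.114, limma). For ND1 and ND2 alike the gap between the groups was wider than the range of the CFA libraries. ND5, the distal proton-pumping subunit, read 1856, 2317 and 1966 FPKM against 1300, 1267 and 1483, with the smallest adjusted p among members (log2 difference -0.60 ± 0.13, adjusted p = 0.0686, limma).

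The small membrane subunit ND4L read 2756, 3367 and 3172 FPKM in saline and 2015, 2068 and 2257 in CFA (log2 difference -0.55). ND3, a mobile subunit near the ubiquinone site, read 3263, 3116 and 3241 against 1909, 2159 and 2562 (log2 difference -0.55). ND6, encoded on the other strand, read 1634, 1959 and 1625 against 1096, 1084 and 1339 (log2 difference -0.57). ND4, another proton-pumping subunit, read 745, 729 and 606 against 383, 389 and 591 FPKM, so that thalamus CFA 3 almost met the lowest saline library (log2 difference -0.63 ± 0.20). Adjusted p over the 7 genes was 0.0686 to 0.162 (limma). Without thalamus CFA 3, ND4 alone passed (log2 difference -0.84, adjusted p = 0.0431, limma).

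Nuclear members differed less. Their median log2 difference was -0.22, beside -0.08 over all genes tested and -0.57 for the ND genes. Of 36 nuclear members 35 were below 0 (26 to 33 under the other scalings). In deposited FPKM 13 had all CFA libraries below all saline libraries, beside 16.8% of all genes. Relative to the median of all genes the nuclear median was -0.14 and the ND median -0.49. By module, medians were -0.24 in N, -0.26 in Q, -0.32 beside ND1, -0.21 beside ND2, -0.19 beside ND4 and -0.26 beside ND5, a narrow span with no module apart. The 7 nuclear subunits that carry the flavin and iron-sulfur clusters had a median of -0.27 and the 27 accessory subunits -0.21. With every library at the same FPKM total, the median of all genes went from -0.08 to 0.07; relative to it the nuclear median was then -0.12 and the ND median -0.47. Under quantile normalization the gaps shrank to 0.01 and -0.15.

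The 4 nuclear members of smallest p were Ndufa13, Ndufb5, Ndufa12 and Ndufs7. Ndufa13 read 232, 256 and 237 FPKM in saline and 181, 192 and 208 in CFA (log2 difference -0.32 ± 0.09, adjusted p = 0.148, limma). Ndufb5, a membrane arm subunit beside ND4, read 69.0, 76.4 and 77.9 against 61.3, 60.5 and 63.9 (log2 difference -0.26). Ndufa12 read 7.46, 9.52 and 7.58 against 5.45, 6.93 and 5.65 (log2 difference -0.39). Ndufs7, which holds the iron-sulfur cluster next to ubiquinone, read 88.6, 104 and 95.6 against 73.4, 76.1 and 87.1 (log2 difference -0.28). For all 4 every CFA library was below every saline library in deposited FPKM, and none passed (adjusted p 0.148 to 0.211, limma). As a share of recovered reads the groups overlapped for Ndufs7 and Ndufa12. Ndufs7 had 1420 of 14978698 reads in thalamus CFA 3, a larger share than the 1728 of 19099460 in thalamus saline 1. Ndufa12 had 108 of 15322329 in thalamus CFA 2, a larger share than the 115 of 16733178 in thalamus saline 3. Ndufa11, a membrane arm subunit beside ND2, lay at the other extreme, with means of 133 FPKM in saline and in CFA.

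**Figure D3:**
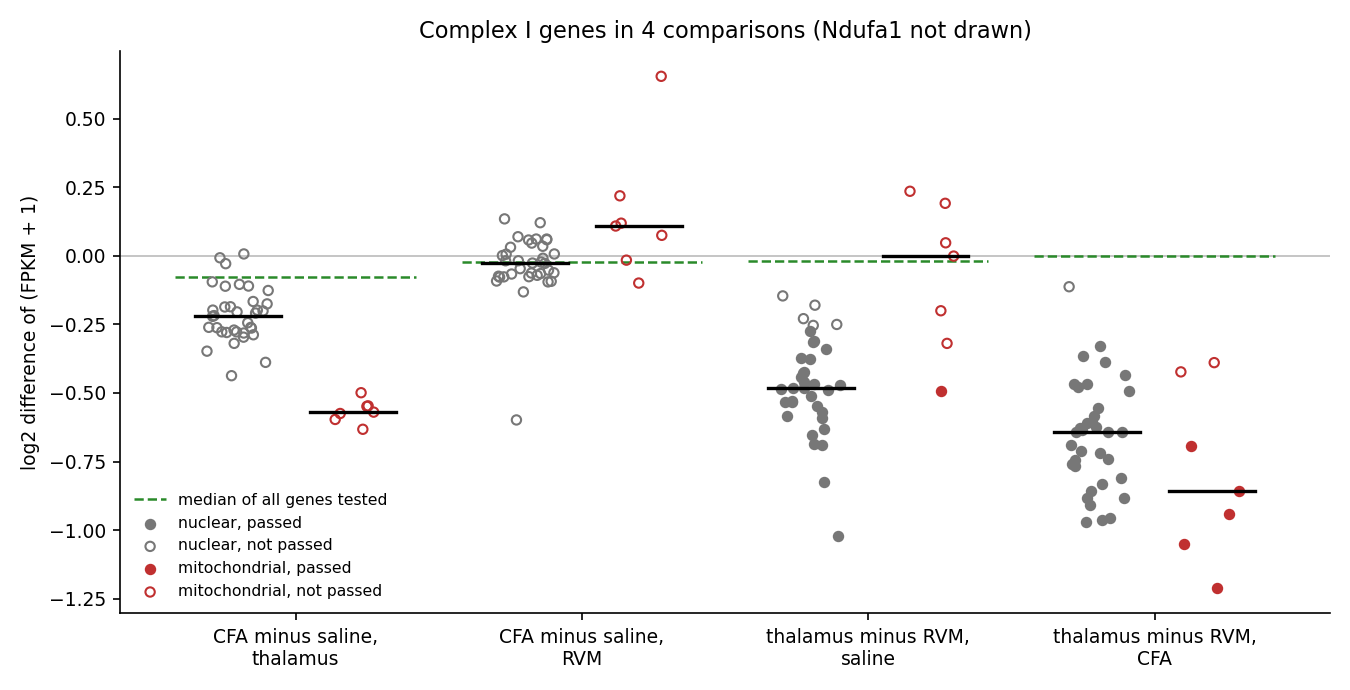
Log2 difference of (FPKM + 1) for each tested complex I gene except Ndufa1 in 4 comparisons. Filled points passed an adjusted p of 0.05 (limma) and open points did not. Black lines are medians of the tested nuclear genes without Ndufa1 and of the ND genes, and dashed lines medians of all genes tested. ND genes sit below nuclear genes in the thalamus under CFA, with none passing, and nuclear genes sit below 0 in the region comparisons, where the ND median is near 0 in saline (0.31 under quantile normalization) and -0.86 in CFA.

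In tissue RNA, fewer cells of a type and less RNA per cell cannot be told apart. Cell type markers moved in the same libraries. The sum of 8 neuron genes was 1601 to 2299 FPKM in thalamus saline and 1154 to 1710 in thalamus CFA, with none of the 8 passing and a median log2 difference of -0.37. The sum of 6 microglia genes was 119 to 141 FPKM with saline and 481 to 648 with CFA, and 5 of the 6 genes rose. Sums of 6 oligodendrocyte genes were 4688 to 7323 and 4543 to 5253 FPKM, and of 6 astrocyte genes 679 to 969 and 712 to 816. The 6 thalamic neuron genes summed to 311 to 750 FPKM with saline and 111 to 433 with CFA, all 6 below 0 with a median log2 difference of -0.92 and none passing. The 5 mural and meningeal genes summed to 100 to 111 and 94.2 to 220 FPKM, with 4 of 5 above 0, a median of 1.80 and none passing. The part of these cells, and of the choroid plexus, in the ND and nuclear values was not tested. With thalamus CFA 1 and 2 both left out, the ND median was -0.40 and the nuclear median -0.10.

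Other genes of the pathway were read from the same fit. The 6 other protein genes of the mitochondrial chromosome had a median log2 difference of -0.52, close to the ND genes, and 1 of them passed: CYTB, the mitochondrial subunit of complex III, fell from 8445 ± 197 to 5579 ± 266 FPKM (SD, n = 3; log2 change -0.60, adjusted p = 0.0481, limma), a call made under no other scaling. Of 16 complex I assembly factors 0 passed (median -0.14, but 0.02 at the same FPKM total and 0.03 by limma-voom; 0 at an unadjusted p below 0.05). Complex II, encoded wholly in the nucleus, had a median of -0.11 over 4 genes with 0 passing, and 0.06 at the same FPKM total. Among 17 genes of mitochondrial DNA expression 0 passed (median -0.08, and 0.05 at the same total). Polrmt, the mitochondrial RNA polymerase, had 6.28 ± 0.44 FPKM in saline and 4.96 ± 0.46 in CFA (log2 difference -0.29, unadjusted p = 0.0355 by limma). Of 8 regulators of nuclear respiratory genes 0 passed (median -0.01, and 0.13 at the same total). Of 12 genes that track mitochondrial content 0 passed. In deposited FPKM their median was -0.22, equal to that of the nuclear members, and 12 of 12 were below 0, the nearest at -0.12. This list is given as deposited only, and at the same total the nuclear median was -0.05.

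The second comparison was CFA against saline in the RVM, where 0 of 43 members and 0 of 14289 genes passed (0%, limma), and limma-voom on the recovered reads also called 0. At an unadjusted p below 0.05 there were 2 members, Ndufa12 and ND4, beside 14.2% of all genes. The nuclear median was -0.03 (0.02 by limma-voom on recovered reads) and the median of all genes -0.02. The ND median was 0.11, and 5 of 7 ND genes were above 0. ND2 read 9459, 8689 and 7619 FPKM in saline and 10091, 10287 and 9500 in CFA, the only ND gene whose CFA libraries all exceeded its saline libraries (log2 difference 0.22 ± 0.11, adjusted p = 0.424, limma). Over all genes 7.27% had CFA libraries wholly above saline libraries. The lack of calls over all genes depended on RVM CFA 2: without it 484 of 14264 genes passed, with 0 members among them (limma). That library had a microglia sum of 219 FPKM, against 711 and 571 in RVM CFA 1 and 3.

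In the RVM, ND1 read 7534, 6545 and 6031 FPKM with saline and 7038, 7595 and 7121 with CFA, and the groups overlapped. ND4 read 509, 869 and 455 against 968, 961 and 845 FPKM; its second saline library lay among the CFA libraries (log2 difference 0.65 ± 0.23, adjusted p = 0.293, limma). ND3 ranged from 3437 to 5055 in saline and 3223 to 5430 in CFA, and ND4L from 3245 to 4013 and 3231 to 4275. ND5 ranged from 1628 to 1886 and 1551 to 1916, and ND6 from 1420 to 1850 and 1328 to 1898. For these 4 genes the groups overlapped widely.

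Among RVM nuclear members, Ndufa12 read 20.9, 19.3 and 13.3 FPKM in saline and 8.89, 11.9 and 13.4 in CFA, overlapping in 1 pair of libraries (log2 difference -0.60 ± 0.20, adjusted p = 0.277, limma). Ndufb2, a small subunit beside ND5, averaged 246 ± 14.1 and 225 ± 14.6 FPKM (SD, n = 3). Ndufv3, the N module accessory subunit, averaged 48.2 ± 1.7 and 45.1 ± 1.4. Groups overlapped for these 3. None of the RVM nuclear members had CFA libraries wholly above or wholly below the saline libraries, while 12.5% of all genes had them wholly below. The microglia sum was 126 to 162 FPKM with saline and 219 to 711 with CFA, and the oligodendrocyte sum 22315 to 25359 and 16535 to 17467. Their part in these values was not tested. The lists of other mitochondrial protein genes, assembly factors, complex II, expression factors, regulators and content genes had 0 calls in the RVM, with medians from -0.03 to 0.11.

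Whether the CFA effect differed between regions was tested as the interaction over all 12 libraries. Of 43 members 0 passed, and of 13738 genes 0 passed (0%, limma; limma-voom also called 0), while 10 members and 11.4% of all genes had an unadjusted p below 0.05. The 10 were 6 of 7 ND genes and 4 of 36 nuclear members. The ND median of the difference (CFA effect in thalamus minus that in RVM) was -0.66, the nuclear median -0.22 and the median of all genes -0.05, and all 7 ND genes were below 0 under every scaling tried. ND2 had -0.72 ± 0.16 (adjusted p = 0.270, limma) and ND1 -0.69 ± 0.16 (adjusted p = 0.270, limma). ND4, whose spread within groups was wide, had -1.29 ± 0.33 (adjusted p = 0.333, limma).

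Nuclear members of smallest p in that interaction were Ndufa10, Ndufb10, Ndufa5 and Ndufb3, with differences of -0.21, -0.23, -0.33 and -0.40 (adjusted p 0.421 to 0.435, limma). Ndufa5, a Q module subunit, averaged 179 ± 12.1 and 150 ± 17.4 FPKM in thalamus saline and CFA, and 241 ± 20.5 and 253 ± 19.8 in the RVM groups. Ndufb3, a membrane arm subunit beside ND5, averaged 93.2 ± 7.2 and 78.1 ± 11.6 in the thalamus and 131 ± 11.9 and 144 ± 16.6 in the RVM.

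The third comparison set thalamus against RVM in saline. Nuclear complex I genes were lower in the thalamus almost throughout: 30 of 36 passed as lower and 0 as higher, with a median log2 difference of -0.48 beside -0.02 over all genes. Of all 14396 genes 45.3% passed, 22.7% as lower and 22.6% as higher (limma). In 32 of the 36 every thalamus library was below every RVM library, which held for 29.9% of all genes. The ND genes had a median of -0.00, with 4 of 7 below 0 (0 of 7 under quantile normalization), and 1 of 7 passed: ND2 was lower (log2 difference -0.49, adjusted p = 0.0147, limma), though 0.22 and not passing under quantile normalization.

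The 8 nuclear members of smallest p spanned most of the enzyme. Ndufv2 (chromosome 9, 113875703 to 113900190), an iron-sulfur subunit of the N module, read 139, 159 and 164 FPKM in the thalamus and 241, 263 and 241 in the RVM (log2 difference -0.69 ± 0.09, adjusted p = 0.0013, limma). Ndufa10 (chromosome 9, 99617052 to 99651813), the large accessory subunit beside ND2, read 61.1, 64.1 and 67.4 against 90.2, 96.5 and 93.0 (log2 difference -0.53 ± 0.07, adjusted p = 0.00133, limma). In each gene the highest thalamus library was far below the lowest RVM library. Ndufc2, also beside ND2, read 144, 134 and 145 FPKM against 209, 245 and 214 (log2 difference -0.65). Ndufa11, also beside ND2, read 126, 137 and 135 against 182, 205 and 190 (log2 difference -0.53). Its promoter holds the NRF1 run shown above, while those of Ndufv2, Ndufa10 and Ndufc2 held none of the cores searched.

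Members of the distal membrane arm followed the same pattern. Ndufb8, with NRF1 and YY1 cores in the promoter shown above, read 215, 253 and 232 FPKM in the thalamus and 343, 391 and 352 in the RVM (log2 difference -0.63). Ndufb7, beside ND5, read 121, 130 and 131 against 186, 205 and 182 (log2 difference -0.58). Ndufb2 read 178, 160 and 167 against 258, 251 and 231 (log2 difference -0.55). Ndufb11, an X-linked subunit beside ND4, read 86.2, 87.2 and 94.7 against 130, 138 and 122 (log2 difference -0.53). The promoter of Ndufb7 held an ETS core, that of Ndufb2 an ERRalpha core and that of Ndufb11 none. A link between promoter cores and regional differences was not tested. The adjusted p of these 8 genes was 0.0013 to 0.00205 (limma), and their calls held in each fit without 1 library and under every scaling.

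Module medians were, in saline, -0.31 in N, -0.43 in Q, -0.59 beside ND1, -0.55 beside ND2, -0.44 beside ND4 and -0.58 beside ND5, and no test between modules was made. Members of a module differed widely among themselves, in N from -0.23 for Ndufs1 to -1.02 for Ndufa12. All 6 Q genes, all 5 beside ND4 and all 5 beside ND5 passed, as did 6 of 9 in N, 2 of 3 beside ND1 and 5 of 6 beside ND2. The 6 that did not pass were Ndufs1, Ndufv1 and Ndufa7 of the N module, Ndufa13, Ndufa1 and Ndufa4l2. Ndufv1, which binds NADH and flavin, read 81.5, 105 and 99.9 FPKM in the thalamus and 102, 125 and 114 in the RVM, with overlapping groups. Ndufs1, the largest iron-sulfur subunit, read 86.5, 101 and 110 against 115, 119 and 113. Ndufa13 read 232, 256 and 237 against 265, 279 and 259, a log2 difference of -0.15 (adjusted p = 0.13, limma). Ndufa12, at the far end, read 7.46, 9.52 and 7.58 against 20.9, 19.3 and 13.3 (log2 difference -1.02 ± 0.18, adjusted p = 0.00473, limma).

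**Figure D4:**
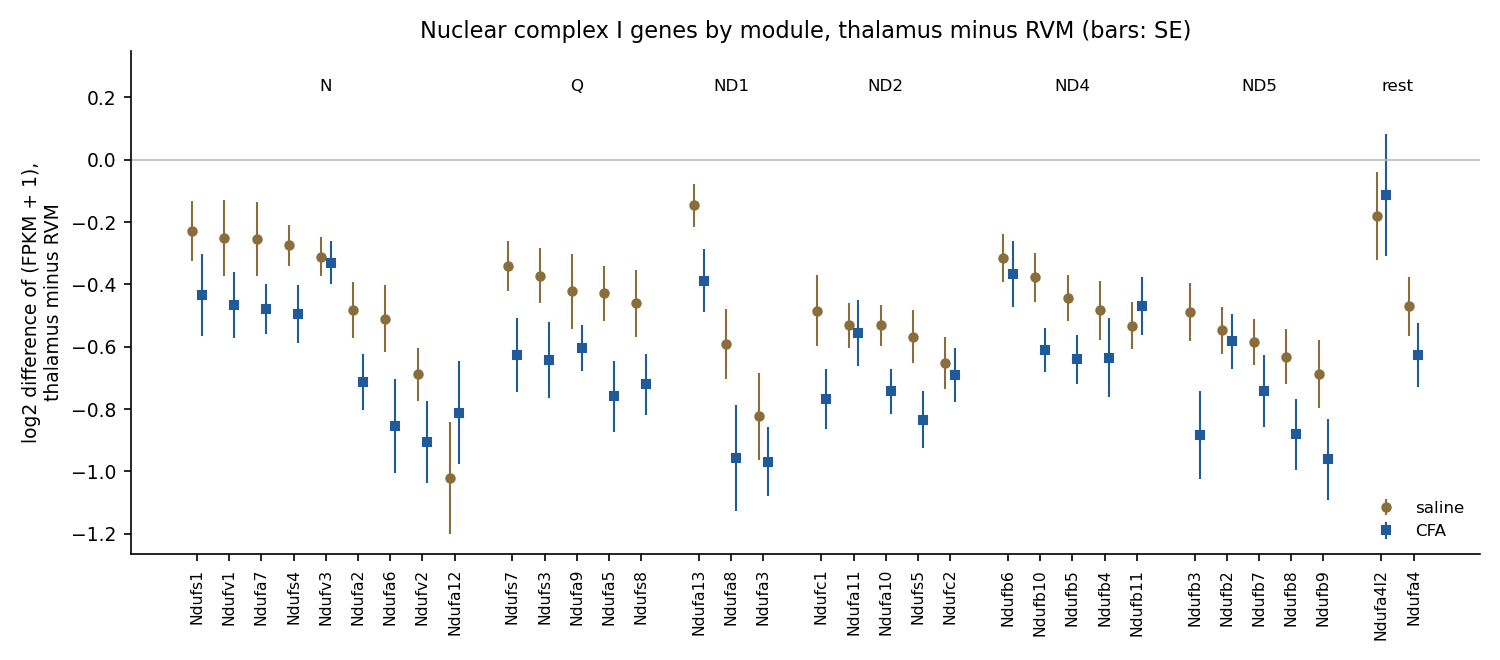
Log2 difference of (FPKM + 1), thalamus minus RVM, for nuclear members ordered by module, in saline (circles) and CFA (squares); bars are the SE from limma, and Ndufa1 and 1 other member are not drawn. All points lie below 0, from -0.15 for Ndufa13 to -1.02 for Ndufa12 in saline.

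The ND genes split between regions. In saline ND2 read 5804, 6567 and 5912 FPKM in the thalamus and 9459, 8689 and 7619 in the RVM, whereas ND1, its neighbour on the chromosome, averaged 6687 ± 597 and 6703 ± 764 (SD, n = 3). Their ratio within a library was 0.891 to 0.937 with saline and 0.928 to 0.988 with CFA in the thalamus, but 1.26 to 1.33 and 1.33 to 1.43 in the RVM. ND1 exceeded ND2 in all 6 thalamus libraries and ND2 exceeded ND1 in all 6 RVM libraries, a ratio that multiplying a whole library by a factor cannot move. ND3 averaged 3207 ± 79.2 in the thalamus and 4059 ± 872 in the RVM, ND4L 3098 ± 313 and 3563 ± 401, ND5 2046 ± 241 and 1788 ± 140, and ND6 1739 ± 190 and 1689 ± 234. ND4 averaged 693 ± 76.3 and 611 ± 225, and passed as higher in the thalamus without RVM saline 2 (log2 difference 0.52, adjusted p = 0.0297, limma). The ND2 call was lost without thalamus saline 3, RVM saline 1 or RVM saline 2 (adjusted p = 0.0518, 0.06 and 0.0519, limma), and with no filter on low genes (adjusted p = 0.37, limma).

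Scaling decided how many calls were made in each direction. Of the genes that passed between regions in saline, 49.8% were higher in the thalamus, against 69.5% with each library at the same FPKM total. The median of all genes moved from -0.02 to 0.14. Relative to it the nuclear median was -0.46 as deposited and -0.44 at the same total, and 21 of 36 nuclear members still passed as lower with 0 higher. Over all scalings tried, 20 of the 31 members called here were called each time. Oligodendrocyte markers summed to 4688 to 7323 FPKM in thalamus saline and 22315 to 25359 in RVM saline, and neuron markers to 1601 to 2299 and 3183 to 3770. The neuron sum hides a split: of its 8 genes 3 passed as higher in the thalamus and 4 as lower (limma). The part of these cell types in the regional difference of complex I genes was not tested.

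In CFA the same regional comparison gave more calls among members. Nuclear members passed as lower in 34 of 36 (median log2 difference -0.64), and ND genes in 5 of 7 (median -0.86), with 0 higher. Of all 14787 genes 33% passed, 18.1% as lower and 14.9% as higher (limma). The 31 members called in saline were all called again. The 4 members not called were ND5, ND6, Ndufa1 and Ndufa4l2. These libraries are not shared with the saline comparison.

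ND2 had the largest ND difference in CFA: 3884, 4455 and 4614 FPKM in the thalamus and 10091, 10287 and 9500 in the RVM, with means of 4317 and 9959 (log2 difference -1.21 ± 0.13, adjusted p = 0.0017, limma). ND4 averaged 455 ± 119 and 925 ± 68.9, ND3 2210 ± 330 and 4308 ± 1104, ND4L 2113 ± 127 and 3852 ± 549, and ND1 4484 ± 287 and 7251 ± 300. Each of these 5 passed as lower in the thalamus, although under quantile normalization ND1 had a log2 difference of 0.31 and ND3 and ND4L did not pass. With no filter on low genes ND4 alone passed, and adjusted p was 0.0964 for ND2, 0.255 for ND1, 0.0907 for ND3 and 0.065 for ND4L (limma). ND5 averaged 1350 ± 117 and 1772 ± 194 (adjusted p = 0.0542, limma), and passed without thalamus CFA 3 (adjusted p = 0.0466, limma). The ND3 call was lost without thalamus CFA 2 or RVM CFA 1 (adjusted p = 0.06 and 0.0657, limma).

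Among nuclear members in CFA, Ndufa10 read 51.7, 55.6 and 57.6 FPKM in the thalamus and 92.1, 92.5 and 93.1 in the RVM (log2 difference -0.74 ± 0.07, adjusted p = 0.00139, limma). Ndufs5, beside ND2, read 153, 156 and 172 against 278, 312 and 269 (log2 difference -0.83). Ndufa3 read 157, 162 and 159 against 289, 365 and 289 (log2 difference -0.97). In all 3 the regions were far apart relative to the spread of their libraries. Ndufb10 and Ndufb5, beside ND4, had log2 differences of -0.61 and -0.64, Ndufa9, a Q module subunit that binds NADPH, -0.60, and Ndufc2 and Ndufc1, beside ND2, -0.69 and -0.77.

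Module medians in CFA were -0.49 in N, -0.64 in Q, -0.96 beside ND1, -0.76 beside ND2, -0.61 beside ND4 and -0.88 beside ND5. Here 45.2% of the genes that passed were higher in the thalamus, against 83.4% at the same FPKM total and 72.1% by limma-voom. The median of all genes was 0.30 at the same total. Relative to it the nuclear median was -0.59 and the ND median -0.81, beside -0.64 and -0.85 as deposited. At the same total 19 of 36 nuclear and 5 of 7 ND genes passed as lower.

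Set against each other within a library, ND and nuclear transcripts gave a ratio that multiplying the library by a factor cannot move. The summed FPKM of the 7 ND genes over that of the nuclear members without Ndufa1 was 5.44, 5.68 and 4.96 in the saline libraries of the thalamus and 4.24, 4.23 and 4.27 in its CFA libraries. In the RVM it was 4.66, 4.35 and 4.02 with saline and 5.06, 4.88 and 4.52 with CFA. In the thalamus every CFA library was below every saline library, and in the RVM the groups overlapped with a higher mean in CFA (4.82 ± 0.27 against 4.34 ± 0.32, SD, n = 3). The median ND gene over the median nuclear gene was 27.8 ± 0.70 with saline and 22.3 ± 0.48 with CFA in the thalamus, and 25.3 ± 2.3 and 26.7 ± 2.8 in the RVM. The 6 other mitochondrial protein genes over the same nuclear sum gave 16.2 ± 0.90, 13.1 ± 0.42, 14.8 ± 1.2 and 15.02 ± 1.1 in the same order. No p is given for these sums over members.

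**Figure D5:**
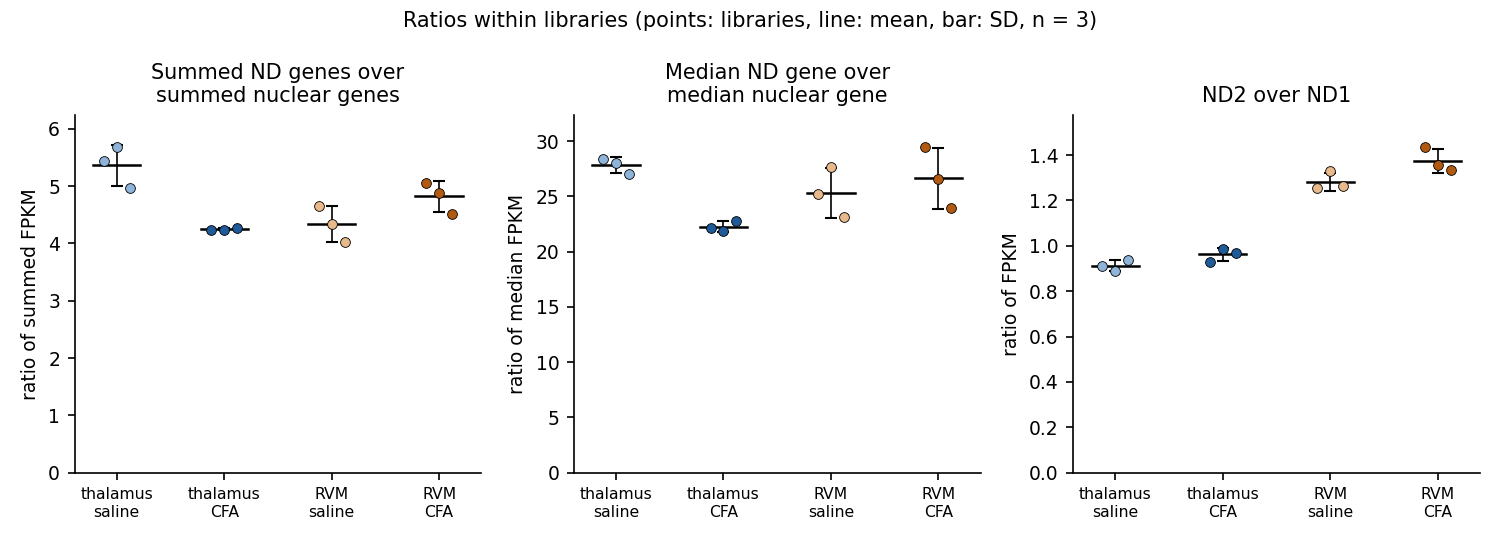
Ratios within each library: summed ND over summed nuclear FPKM without Ndufa1 (left), median ND over median nuclear FPKM (middle) and ND2 over ND1 (right); points are libraries, lines means and bars SD (n = 3), and axes start at 0. The ND to nuclear ratio is 4.23 to 4.27 in thalamus CFA against 4.96 to 5.68 in thalamus saline, and ND2 over ND1 is below 1 in the thalamus and above 1 in the RVM.

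The wider pathway also differed between regions in saline, with directions of list medians that held under every scaling except for the other mitochondrial protein genes, at 0.00 by quantile normalization. Counts of calls in these lists are from deposited FPKM unless stated, where 22.7% of all genes passed as lower in the thalamus and 22.6% as higher. Of 16 complex I assembly factors 6 were lower in the thalamus and 1 higher (median log2 difference -0.23): Ndufaf8 had 36.0 ± 2.8 and 62.2 ± 2.6 FPKM in thalamus and RVM, Ndufaf2 7.09 ± 0.90 and 13.2 ± 1.6, and Ndufaf4, the exception, 15.01 ± 3.4 and 10.3 ± 0.54 (SD, n = 3). Ndufab1, the acyl carrier protein that is also a complex I subunit, was lower, with 37.8 ± 4.4 and 50.9 ± 4.5 FPKM (adjusted p = 0.0202, limma). In complex II 3 of 4 genes were lower (median -0.52), and among 12 genes that track mitochondrial content 6 were lower and 0 higher (median -0.24). Among the 6 other mitochondrial protein genes 3 were lower, the cytochrome c oxidase genes COX1, COX2 and COX3, with a median of -0.35 over the 6.

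Of 8 regulators of nuclear respiratory genes 4 were higher in the thalamus and 0 lower (median 0.22, 6 of 8 above 0), beside 22.6% of all genes higher. Ppargc1b and Ppargc1a, coactivators of mitochondrial biogenesis, had 2.88 and 6.87 FPKM in the thalamus and 1.00 and 4.30 in the RVM, with log2 differences of 0.94 and 0.56 (adjusted p = 0.0029 and 0.0178, limma). Pprc1, their relative, had 4.89 and 2.66 FPKM (log2 difference 0.69). Among 18 genes of mitochondrial DNA expression 8 were lower and 3 higher, but 0 lower and 4 higher at the same FPKM total. Tfam, which packages mitochondrial DNA and starts its transcription, was lower at 16.1 against 21.3 FPKM, and Mtpap, which adds poly(A) to mitochondrial messenger RNA, was higher at 6.05 against 4.09. In CFA 18.1% of all genes were lower and 14.9% higher. There 7 of 16 assembly factors, 3 of 4 complex II genes, 8 of 12 content genes and 6 of 6 other mitochondrial protein genes were lower. Of 8 regulators 3 were higher with 1 lower. Of 18 expression genes 4 were lower with 1 higher, near the share of all genes. At the same FPKM total the medians of the assembly and expression lists in CFA were 0.04 and 0.12, in place of -0.29 and -0.20.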

How the data were processed

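The 12 libraries were deposited by the authors as a single table of FPKM per gene with length, position and biotype, per the file headers. Libraries were made from total RNA with a TruSeq kit, per the labels' protocols. Neither the aligner and counter nor the annotation and its build were given in the sources used here. FPKM times gene length gave whole reads for 100% of values (tolerance 0.01), and the authors' library totals differed from the recovered totals by a factor of 0.934 to 1.17 (1.11 to 1.17 in thalamus CFA), so the deposited FPKM hold a further scaling whose method is not given there.

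Limma 3.58.1 (R 4.3.3) was fitted to log2(FPKM + 1), with a trended empirical Bayes variance. Genes averaging 1 FPKM or more in the compared libraries, or in each region for the interaction, were tested. P-values were Benjamini-Hochberg adjusted over all genes tested and genes with an adjusted p below 0.05 called, with 3 libraries per group. Changes on this scale understate those of low genes. The fits were tested on simulated data. Members, lists, motifs and tests were chosen with earlier results of these data known. Every ND gene is named, and per comparison up to 8 nuclear members that passed, by smallest p, or otherwise the 4 of smallest p. Also named are the nuclear extremes, Ndufa4, Ndufa4l2 and Ndufa10l1, and examples from each pathway list; 1 nuclear member that the rule names is not reported here by itself but stays in all counts and medians. The 4 promoters, Ndufb8 and Ndufb9 as high members, and the spread of Ndufa1 were chosen after seeing values.

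Alternatives were other scalings (same FPKM total with or without the mitochondrial chromosome, median of ratios, quantile), a pseudocount of 0.1, no filter, a filter at 5 FPKM, limma-voom on recovered reads, robust empirical Bayes, library quality weights, a replicate block, 1 model over all 12 libraries, and fits without given libraries. Median differences without Ndufa1 were added after seeing the data. Promoter sequences are from RefSeq (GRCr8).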

Additional observations from a re-analysis of the deposited data

Results flagged for a closer look

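ND2 stood out because all 3 thalamus CFA libraries lay below all 3 thalamus saline libraries (3884 to 4614 against 5804 to 6567 FPKM), while all 3 RVM CFA libraries lay above all 3 RVM saline libraries (9500 to 10287 against 7619 to 9459 FPKM). The difference of the CFA effects, thalamus minus RVM, was -0.72 ± 0.161 (SE) on the log2 scale, with an unadjusted p of 0.00104 and an adjusted p of 0.27 by limma over 13738 genes, so it did not pass.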

How the results depend on the processing

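Counts of called members, nuclear medians and ND medians were recomputed under each alternative: 260 of 296 such values stayed within the limits set for them. Of the values for named genes, 1172 kept direction and side of the threshold, 24 newly passed, 12 no longer passed and 3 reversed. In the thalamus under CFA, with 0 members called, 2 were called with a filter at 5 FPKM, 1 with robust empirical Bayes, 4 with library quality weights, 8 in 1 model over all 12 libraries, and 0 to 1 without 1 library. There the nuclear and ND medians of -0.22 and -0.57 became -0.05 and -0.40 at the same FPKM total, -0.07 and -0.23 by quantile normalization, -0.04 and -0.39 by limma-voom, and -0.10 and -0.40 without thalamus CFA 1 and 2. At the same total off the mitochondrial chromosome the nuclear median was -0.13. Between regions in saline, -0.48 and -0.00 became -0.30 and 0.18 at the same total, -0.34 and 0.31 by quantile normalization, and -0.33 and 0.15 at the same total off the mitochondrial chromosome. With quality weights the nuclear median was -0.40. Between regions in CFA, where 39 members were called, 24 were called at the same total and 22 by quantile normalization. The medians of -0.64 and -0.86 became -0.30 and -0.51, -0.39 and -0.08, -0.42 and -0.63 off the mitochondrial chromosome, and -0.44 and -0.64 by limma-voom. For the interaction, -0.22 and -0.66 became -0.06 and -0.49 at the same total and -0.06 and -0.33 by quantile normalization, and the nuclear median was -0.09 by limma-voom. Reversed values, all by quantile normalization, were ND2 0.22 and ND1 0.75 between regions in saline and ND1 0.31 in CFA. The cause was not tested. Without Ndufa1 no nuclear median left these limits. Over all genes, the 605 calls in the thalamus were 298 with a filter at 5 FPKM, 1010 with quality weights, 1932 in the model over 12 libraries, 309 to 547 without 1 library and 66 without CFA 1 and 2. In the RVM 0 became 484 without RVM CFA 2, 0 to 2 without any other library and 1 with no filter, and in the interaction 0 became 15 without thalamus saline 1 and 1 without thalamus CFA 2. Limma-voom on recovered reads called 663 genes in the thalamus, 0 in the RVM, 6368 and 5179 between regions in saline and CFA, and 0 in the interaction. Between regions in CFA, 4880 became 2906 to 2937 without 1 RVM CFA library. Same-numbered libraries correlated at 0.364, 0.0634 and 0.267 between thalamus groups, with thalamus CFA 3 closest to saline 2, and at -0.028 to -0.00505 between RVM groups. Between regions they correlated at 0.106, 0.0203 and -0.0141 in saline and 0.203, 0.0756 and -0.0371 in CFA. In both treatments thalamus libraries 1 and 2 were closest to the RVM library of their number, and thalamus library 3 to RVM library 2. Whether equal numbers mark the same rat is not stated. The numbers were not taken to pair samples, and the region comparisons treat libraries as independent. With the replicate block 1338 genes passed in the thalamus, 583 of them lower, and 0, 0, 32, 39 and 0 members passed in the thalamus, the RVM, the region comparisons in saline and CFA, and the interaction.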

Other observations

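Mitochondrial ribosomal RNA, which entered no comparison above, held 0.796% ± 0.021 of recovered reads in thalamus saline, 0.505% ± 0.104 in thalamus CFA, 0.628% ± 0.090 in RVM saline and 0.614% ± 0.086 in RVM CFA (SD, n = 3). The 3 thalamus CFA libraries read 0.421%, 0.472% and 0.621%, all below the 0.775% to 0.818% of thalamus saline. Within mitochondrial messenger RNA, the summed ND FPKM over that of the 6 other protein genes was 0.330 ± 0.016 in thalamus saline, 0.324 ± 0.010 in thalamus CFA, 0.293 ± 0.009 in RVM saline and 0.321 ± 0.006 in RVM CFA. The thalamus groups overlapped, and in the RVM all 3 CFA libraries (0.316 to 0.328) were above all 3 saline libraries (0.287 to 0.303). As a share of all reads, the 13 mitochondrial protein genes held 8.91% ± 0.19, 7.02% ± 0.58, 10.5% ± 0.93 and 11.1% ± 0.86 in the same order, and the nuclear members 0.344% ± 0.014, 0.333% ± 0.023, 0.451% ± 0.019 and 0.459% ± 0.018. On that scale the nuclear members of thalamus saline (0.333% to 0.359%) and thalamus CFA (0.314% to 0.359%) overlapped, while those of the RVM were all higher (0.437% to 0.480%).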
